A study of Rattus norvegicus with 8 samples.

Results

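The type IV collagen chains are encoded by 6 genes, Col4a1 to Col4a6, and all 6 were found by gene symbol among the 31699 rows of the rat gene expression table. They were selected on their TPM in the same 2 groups compared here, above all the large difference of Col4a3, so the levels, fold changes and ratios of the chains are given below as a description and without a test. RNA-seq was performed on annulus fibrosus cells (AFCs), the cells of the fibrous outer ring of the intervertebral disc, isolated from Sprague Dawley rats. In both groups the AFCs carried a lentiviral vector and were exposed to mechanical stretch, a treatment used in the study to induce apoptosis. The Lv-Ctrl group (n = 4) received pLVX-shRNA-Puro, the empty control vector, and the Lv-Piezo1 group (n = 4) received pLVX-shRNA-Puro-Piezo1, which carries a short hairpin RNA against Piezo1, a mechanically gated cation channel. No unstretched AFCs were analysed here. The cells were passaged primary AFCs, and the study's methods describe the samples as biological repeats, each isolation pooling the disc tissue of several rats. The labels do not say whether samples of the groups with the same number share an isolation.

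Type IV collagen is the network-forming collagen of basement membranes, the thin sheets of matrix that underlie epithelia and endothelia and surround muscle, fat and nerve cells. Its chains wind into triple helices of fixed composition. The chains of Col4a1 and Col4a2 form the heterotrimer found in nearly all basement membranes. The chains of Col4a3, Col4a4 and Col4a5 form a trimer best known from the kidney glomerulus, the lung alveolus and the cochlea, and mutations in these genes cause Alport syndrome. The chains of Col4a5 and Col4a6 form another trimer, known from the smooth muscle layer of vessels and from Bowman's capsule. The genes lie in head-to-head pairs (Col4a1 with Col4a2, Col4a3 with Col4a4, and Col4a5 with Col4a6), each pair transcribed in opposite directions from neighbouring start sites.

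Levels were read as TPM, in which transcript abundance is already scaled for gene length and for the total of the sample, so genes can be compared with each other. The TPM values keep no read numbers, so the depth behind each value is unknown. Fold changes are Lv-Piezo1 against Lv-Ctrl on the log2(TPM + 1) scale, where changes of weakly expressed genes come out too small. Genes with a mean of at least 1 TPM over the 8 samples were tested (13103 genes), and a call required a log2 fold change of 1 or more in either direction together with an adjusted p below 0.05. By this rule 1005 genes were called, which is 7.67% of those tested. Of the tested genes 4.91% were called higher and 2.76% lower, and in 54.2% the 4 samples of one group did not overlap the 4 of the other. The median log2 fold change of all tested genes was 0.14, and after scaling by the median ratio over genes it was -0.02. Of the called genes 64.1% were higher, against 51.0% after median-ratio scaling and 49.4% after quantile normalisation. Correlations between samples were 0.973 to 0.983 within groups and 0.939 to 0.945 between groups.

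The targeted gene did not follow its label. Piezo1 stood at 31.1, 33.0, 26.7 and 29.5 TPM in Lv-Ctrl replicates 1 to 4 and at 38.1, 37.7, 40.2 and 41.4 TPM in the samples labelled Lv-Piezo1. All 4 samples labelled Lv-Piezo1 were above all 4 Lv-Ctrl samples, with a log2 fold change of 0.38 (SE 0.06, adjusted p = 8.6e-04, limma). Whether the labels are right was not tested here, and a transcript level does not show the amount of protein. Directions below therefore compare samples by their labels, Lv-Piezo1 against Lv-Ctrl.

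Col4a3 and Col4a4 were below 1 TPM in Lv-Ctrl and well above it in Lv-Piezo1. Col4a3 (ENSRNOG00000015365), whose chain carries the Goodpasture autoantigen, was at 0.32, 0.39, 0.26 and 0.37 TPM in the 4 Lv-Ctrl samples. In the 4 samples labelled Lv-Piezo1 it was at 32.3, 33.6, 35.0 and 37.2 TPM. The groups were far apart, since the lowest Lv-Piezo1 sample was 82.8 times the highest Lv-Ctrl sample. The means were 0.335 ± 0.058 TPM and 34.5 ± 2.11 TPM (SD, n = 4 each), a ratio of 103 and a log2 fold change of 4.73 (SE 0.05). By mean TPM among the 13103 tested genes, Col4a3 was at rank 12982 in Lv-Ctrl and at rank 3721 in Lv-Piezo1. It was among the tested genes only through its Lv-Piezo1 values, so nothing is read from these ranks.

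Col4a4 (ENSRNOG00000014851), the partner of Col4a3 in the glomerular trimer, was at 0.65, 0.30, 0.15 and 0.11 TPM in Lv-Ctrl. It was at 9.54, 8.72, 8.57 and 9.06 TPM in Lv-Piezo1. The Lv-Ctrl samples differed from each other several-fold at these low levels, whereas the Lv-Piezo1 samples lay close together and did not overlap them. The means were 0.303 ± 0.246 TPM and 8.97 ± 0.430 TPM, with a log2 fold change of 2.95 (SE 0.13). The ratio of the means was 29.7, and ratios between single samples ran from 13.2 to 86.7. These were the 2 chains called higher, of 5 chains tested, beside 4.91% of all tested genes called higher. Both passed the filter on low values only through the Lv-Piezo1 samples, and nothing is read from the count since the same contrast chose the chains.

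The start sites of Col4a3 and Col4a4 lie 413 bases apart and those of Col4a1 and Col4a2 lie 77 bases apart in RefSeq (rat build GRCr8). The stretches before these starts are shown because the chains of a pair are read outward from them and the levels are compared within pairs. The first runs from Col4a2 to Col4a1 at chr16:84885521-84885596 (plus strand), and the others are the 250 bases before Col4a3 at chr9:91323740-91323989 (plus strand) and before Col4a4 at chr9:91323578-91323827 (minus strand). Capitals mark GC boxes, GGGCGG on either strand.
between Col4a2 and Col4a1: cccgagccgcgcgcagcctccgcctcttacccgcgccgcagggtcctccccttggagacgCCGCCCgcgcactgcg
upstream of Col4a3: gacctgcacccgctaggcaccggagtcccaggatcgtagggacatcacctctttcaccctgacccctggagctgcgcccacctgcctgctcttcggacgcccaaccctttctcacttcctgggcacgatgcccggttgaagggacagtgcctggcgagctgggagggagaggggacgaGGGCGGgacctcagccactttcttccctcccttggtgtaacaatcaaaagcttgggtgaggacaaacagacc
upstream of Col4a4: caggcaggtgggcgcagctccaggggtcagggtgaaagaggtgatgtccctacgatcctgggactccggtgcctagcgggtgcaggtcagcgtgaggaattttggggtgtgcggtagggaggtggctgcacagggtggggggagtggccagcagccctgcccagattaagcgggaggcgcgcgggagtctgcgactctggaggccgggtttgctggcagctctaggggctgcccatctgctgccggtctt

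All 6 chains had a RefSeq promoter window of 300 bases, from 250 before to 50 after the start. The windows of Col4a1 and Col4a2 share 176 bases and hold 75% and 73.7% G or C, with 38 and 37 CpG dinucleotides. The windows of Col4a3 and Col4a4 share 88 bases and hold 62.0% and 65.3% G or C, with 15 and 14 CpG. The medians over 33469 rat promoters of the same length were 51.7% and 7 CpG, so both pairs stand above the median, the Col4a1 and Col4a2 pair more so. Col4a5 and Col4a6, with starts 1415 bases apart and no shared bases in their windows, hold 53.3% and 48.3%.

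A search on both strands found GC boxes in the windows of Col4a1 (2), Col4a2 (2), Col4a3 (1), Col4a5 (1) and Col4a6 (1), and in 33.1% of all promoters. The GC boxes of Col4a1 and Col4a2 are the same bases, read from both sides. CCAAT was found at 2 places in the Col4a1 window and 1 in the Col4a2 window, which is one of the same places, and in 37.5% of all promoters. GGAATG, the core of the TEAD site, was found only in the Col4a6 window among the chains, and in 14.2% of all promoters. TATAAA (in 14.2% of promoters), CCCTNCCCC, a motif described in the Col4a1 and Col4a2 promoter (9.12%), and the CArG box (1.64%) were found in none of the 6 windows. GC box and CCAAT matches overlapped nowhere in the chains' windows.

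Col4a1 and Col4a2 carried nearly all type IV collagen transcript in both groups. Col4a1 (ENSRNOG00000016281) was at 235, 241, 202 and 225 TPM in Lv-Ctrl and at 371, 353, 377 and 404 TPM in Lv-Piezo1. Its groups did not overlap, with means of 226 ± 17.1 and 376 ± 21.2 TPM and a log2 fold change of 0.73 (SE 0.07), under the limit for a call. Col4a2 (ENSRNOG00000023972) was at 263, 265, 211 and 244 TPM in Lv-Ctrl and at 302, 293, 307 and 337 TPM in Lv-Piezo1. Its groups did not overlap either, although they came closer, with means of 246 ± 24.8 and 310 ± 18.9 TPM and a log2 fold change of 0.34 (SE 0.09). The Col4a1 difference was 0.55 and the Col4a2 difference 0.16 after median-ratio scaling.

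Col4a5 (ENSRNOG00000018951), which joins either of the specialised trimers, was at 9.21, 10.7, 6.65 and 9.18 TPM in Lv-Ctrl and at 9.23, 9.65, 10.8 and 11.8 TPM in Lv-Piezo1. The groups overlapped, with means of 8.93 ± 1.68 and 10.4 ± 1.17 TPM and a log2 fold change of 0.21 (SE 0.15). The difference was 0.09 without Lv-Ctrl replicate 3, the lowest sample, and 0.04 after median-ratio scaling. Col4a6 (ENSRNOG00000056772) was at 0.09, 0.14, 0.13 and 0.13 TPM in Lv-Ctrl and at 0.37, 0.34, 0.41 and 0.45 TPM in Lv-Piezo1. Its groups did not overlap, but every value was below 1 TPM, and with a mean of 0.258 TPM it was not tested. Its log2 fold change was 0.31 (SE 0.03) and its ratio of means 3.20.

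Across the family, 6 of 6 chains had a higher mean in Lv-Piezo1. The groups did not overlap in 5 of 6 chains, or 4 of the 5 tested, beside 54.2% of all tested genes, and nothing is read from these counts either. Lv-Ctrl replicate 3 had the lowest value of its group for Col4a1, Col4a2, Col4a3 and Col4a5, and Lv-Piezo1 replicate 4 had the highest for these chains. The same 2 samples were at the ends of the upper quartile of TPM over tested genes, with 36.4 TPM in Lv-Ctrl replicate 3 and 40.9 TPM in Lv-Piezo1 replicate 4. The part of this in the differences among chains was not tested.

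**Figure D1:**
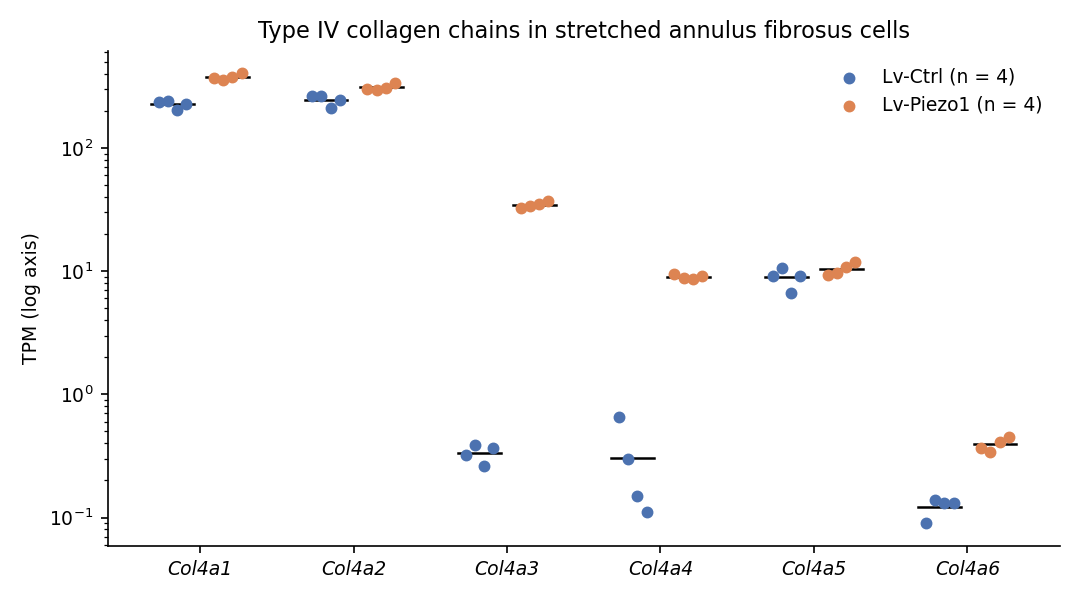
TPM on a log axis of the 6 type IV collagen chains in each sample, with Lv-Ctrl in blue and samples labelled Lv-Piezo1 in orange (n = 4 each) and a line at each mean. Col4a3 and Col4a4 lie below 1 TPM in Lv-Ctrl and at 32.3 to 37.2 and 8.57 to 9.54 TPM in Lv-Piezo1, while the groups overlap for Col4a5.

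The order of the levels changed with the group. In Lv-Ctrl the order by mean was Col4a2, Col4a1, Col4a5, Col4a3, Col4a4 and Col4a6. The ranges of Col4a2 and Col4a1 overlapped there, although Col4a2 was the higher of them in 4 of 4 samples, and the range of Col4a4 overlapped both that of Col4a3 above it and that of Col4a6 below it. In Lv-Piezo1 the order was Col4a1, Col4a2, Col4a3, Col4a5, Col4a4 and Col4a6, and only the ranges of Col4a5 and Col4a4 overlapped. Col4a3 thus stood above Col4a5 in the samples labelled Lv-Piezo1 and below it in Lv-Ctrl.

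The summed TPM of the 6 chains was 421 to 518 in Lv-Ctrl and 698 to 799 in Lv-Piezo1, a ratio of means of 1.54. Col4a1 and Col4a2 made up 98.0% ± 0.215 of that sum in Lv-Ctrl and 92.7% ± 0.168 in Lv-Piezo1. Thus the chains of the general trimer remained the bulk of the transcript in each of the 8 samples. The share of Col4a1 was 47.0% and then 50.8%, whereas that of Col4a2 was 51.0% and then 41.9%. Col4a3 and Col4a4 together held 0.130% of the sum in Lv-Ctrl and 5.88% in Lv-Piezo1. Col4a5, the remaining chain of their trimer, held 1.84% and 1.40%.

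Set against Col4a5 within each sample, Col4a3 stood at a ratio of 0.0377 ± 0.0025 in Lv-Ctrl and 3.34 ± 0.174 in Lv-Piezo1. Col4a4 stood at 0.0333 ± 0.0257 and 0.875 ± 0.122. In Lv-Ctrl both chains were thus rare beside Col4a5, and in Lv-Piezo1 Col4a3 exceeded it while Col4a4 was near it. Transcript ratios do not show which trimers were assembled.

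Within gene pairs, the ratio of the chains differed between groups in each pair. Col4a1/Col4a2 was 0.894, 0.911, 0.957 and 0.924 in Lv-Ctrl and 1.226, 1.202, 1.226 and 1.198 in Lv-Piezo1. It was below 1 in 4 of 4 Lv-Ctrl samples and above 1 in 4 of 4 samples labelled Lv-Piezo1. The log2 ratio differed by 0.40 (SE 0.02), and a ratio within a sample does not depend on the scaling of that sample.

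Col4a3/Col4a4 was 0.492, 1.30, 1.73 and 3.36 in Lv-Ctrl, a wide spread between chains that were both below 1 TPM, and 3.39, 3.85, 4.09 and 4.11 in Lv-Piezo1. The groups adjoin without overlapping, with a log2 difference of 1.47 (SE 0.58) that ran from 0.97 to 1.89 when single samples were left out. Col4a5/Col4a6 was 102, 76.4, 51.2 and 70.6 in Lv-Ctrl and 24.9, 28.4, 26.3 and 26.3 in Lv-Piezo1, a log2 difference of -1.46 (SE 0.21). This ratio rests on Col4a6 values below 1 TPM.

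**Figure D2:**
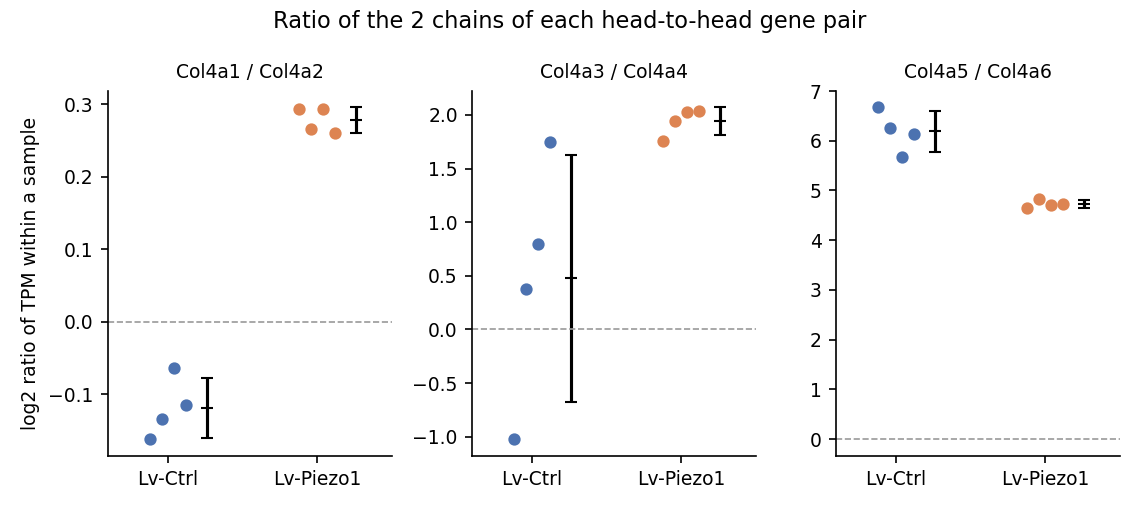
Log2 ratio of the TPM of the chains of each head-to-head pair within each sample, with Lv-Ctrl in blue, samples labelled Lv-Piezo1 in orange (n = 4 each) and bars giving the mean and SD. Col4a1/Col4a2 lies below the dashed line of equal levels in Lv-Ctrl and above it in Lv-Piezo1, with little spread in either group.

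Among other collagens whose chains share a trimer, chosen after their values were seen, the log2 ratio differed between groups by 0.12 (SE 0.03) for Col1a1/Col1a2, by 0.21 (SE 0.01) for Col6a1/Col6a2 and by 0.44 (SE 0.14) for Col8a1/Col8a2. For Col5a1/Col5a2 the difference was -0.56 (SE 0.06). The value of Col4a1/Col4a2, 0.40, lies within the range of these sizes.

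In a wider setting, 498 other head-to-head pairs with starts at most 2000 bases apart had both genes tested. The median gap between the log2 fold changes of the genes of a pair was 0.25. The gap of Col4a1 and Col4a2 was 0.40, and 150 of the 498 pairs had a larger one. Col4a3 and Col4a4 differed by 1.78, with 3 pairs larger. In no other pair did both genes reach a log2 fold change of at least 1, while in 13 at least 1 gene reached that size in either direction. Col4a3 and Col4a4 were selected on this same contrast and the other pairs were not, so nothing is read from their place among the pairs. Col4a5 and Col4a6 were not placed in this comparison because Col4a6 was not tested.

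**Figure D3:**
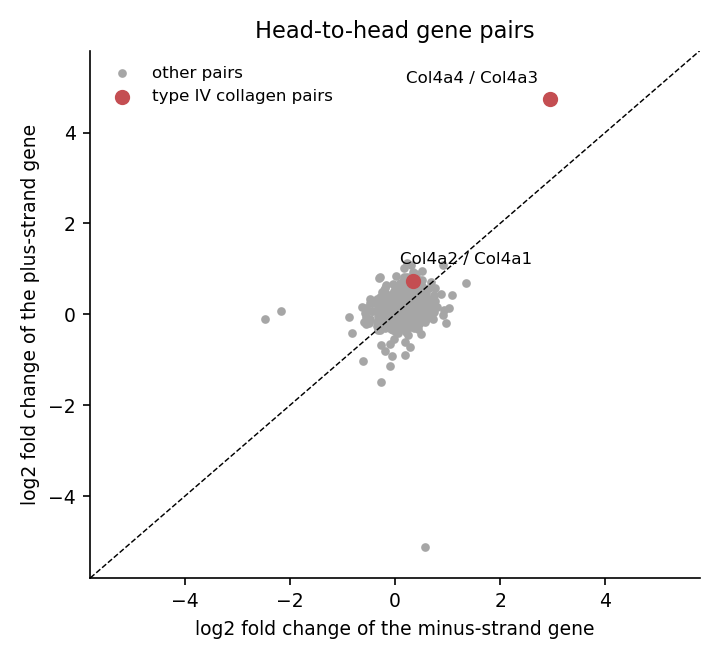
Log2 fold change of the plus-strand gene against that of the minus-strand gene for 498 head-to-head pairs (grey) and the type IV collagen pairs with both chains tested (red), with a dashed line of equal change. The pair of Col4a4 and Col4a3, selected on this contrast, lies at upper right, with 2.95 and 4.73. Col4a2 and Col4a1 lie inside the grey cloud.

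The genes that flank the pairs in RefSeq order were followed in the same samples. Beside Col4a4, Irs1, an insulin receptor substrate, had a log2 fold change of -0.03 (adjusted p = 0.82) and Rhbdd1, a rhomboid protease, one of -0.24 (adjusted p = 0.023). Beside Col4a3, Mff, a mitochondrial fission factor, had 0.09 (adjusted p = 0.036), and Tm4sf20 was listed at 0 in all samples. None of the tested neighbours was called, and Tm4sf20 was not tested. Col4a3 and Col4a4 were selected on this contrast and their neighbours were not, so nothing is read from the difference between them.

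Around Col4a2 and Col4a1, Naxd, an enzyme of NAD(P)H repair, had a log2 fold change of 0.63 (adjusted p = 1.0e-05), the small GTPase gene Rab20 had 0.32 (adjusted p = 0.004) and Irs2 had 0.62 (adjusted p = 0.002). These 3 neighbours were higher by amounts of the same order as the chains, and Myo16 was too low to be tested. Around Col4a6 and Col4a5, the ubiquitin ligase gene Mid2 had 0.11 (adjusted p = 0.59) and the RNA export gene Nxt2 had -0.03 (adjusted p = 0.82). Vsig1 was too low to be tested and Gucy2f was listed at 0 in all samples.

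**Figure D4:**
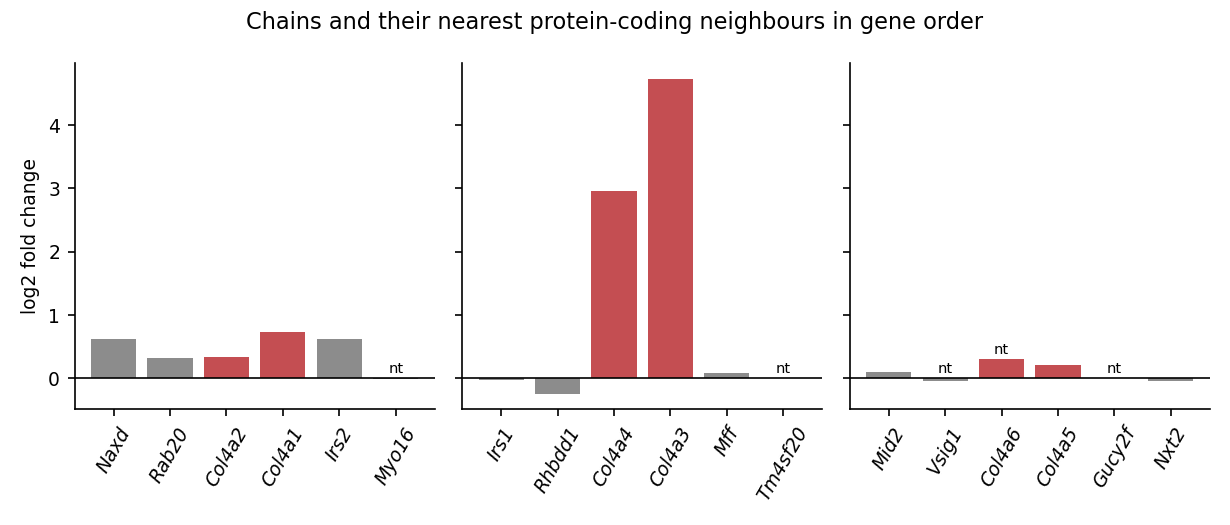
Log2 fold change, Lv-Piezo1 against Lv-Ctrl on the log2(TPM + 1) scale, of the chains (red) and of the nearest protein-coding genes on each side in RefSeq order (grey), with nt marking genes not tested. Beside Col4a4 and Col4a3 the tested neighbours lie between -0.24 and 0.09.

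By the smallest root mean square distance between log2 profiles over the 8 samples, each centred on its mean, the genes most like Col4a3 were Acta2 (0.105), RGD1565462 (0.107) and Prss35 (0.157). Acta2, which encodes smooth muscle actin, was at 51.2 TPM in Lv-Ctrl and 1344 TPM in Lv-Piezo1. For Col4a4 they were Lpl (0.143), the lipoprotein lipase gene, Gja5 (0.147), a gap junction gene, and Mcam (0.168), an adhesion molecule of vessel walls. Gja5 was at 0.348 and 9.58 TPM, and Mcam at 7.17 and 62.2 TPM. With 2 groups this measure mostly finds genes with an equal fold change.

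The profiles nearest to Col4a1 were Ptgfrn (0.0205), Col1a2 (0.024) and Gcnt4 (0.024), of which Col1a2, a chain of type I collagen, had a log2 fold change of 0.71. The profiles nearest to Col4a2 were Arhgef11 (0.0171), Prrc2b (0.0219) and Pop1 (0.0241). Those nearest to Col4a5 were Nsd1 (0.0482), Tmem263 (0.0507) and Slmap (0.0516). No gene was among the 3 nearest of more than 1 of the 5 tested chains, and Col4a6 was not compared.

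Type IV collagen chains must be hydroxylated, folded, exported and crosslinked, and 28 genes of these steps were tested. Of these, 2 were called, both higher, or 7.14%, close to the 7.67% of all tested genes, and the median log2 fold change was 0.25 beside 0.14 for all tested genes. Both were catalytic subunits of prolyl 4-hydroxylase, which stabilises the triple helix. P4ha2 rose from 47.9 ± 2.25 to 129 ± 3.62 TPM (log2 fold change 1.41, adjusted p = 1.2e-08) and P4ha1 from 132 ± 10.5 to 291 ± 16.6 TPM (1.14, adjusted p = 6.6e-07). After median-ratio scaling P4ha1 was at 0.96 and no longer called.

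Other assembly genes moved by less than the limit for a call. The log2 fold change was 0.26 (adjusted p = 1.7e-05) for P4hb, the partner subunit of prolyl 4-hydroxylase, and 0.33 (adjusted p = 2.2e-05) for Plod3, which hydroxylates and glycosylates lysines. It was 0.26 (adjusted p = 0.0051) for Mia3, which loads collagen into transport carriers. Serpinh1, the collagen chaperone HSP47, was at 1709 ± 72.9 and 1698 ± 31.0 TPM, a log2 fold change of -0.01 (adjusted p = 0.85). These values are not set against that of Col4a3, which was selected for its large difference.

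Crosslinking genes, and Cert1 from the same list, were likewise under the limit. Pxdn, the peroxidasin that joins type IV collagen networks through sulfilimine bonds, was at 29.0 ± 3.68 and 43.8 ± 2.83 TPM (log2 fold change 0.59, adjusted p = 4.4e-04). Loxl2, a lysyl oxidase that acts on type IV collagen, had 0.29 (adjusted p = 0.0099). Cert1, a gene whose alternative product was described as a kinase of the Goodpasture antigen, had 0.28 (adjusted p = 0.015).

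Among other basement membrane components, 5 of 20 tested genes rose and 1 fell, or 30% beside 7.67% of all tested genes. The median log2 fold change was 0.47, and 0.30 after median-ratio scaling, beside 0.14 and -0.02 for all tested genes. The risers included Fbln2, a matrix glycoprotein, from 3.33 ± 0.424 to 54.3 ± 1.09 TPM (log2 fold change 3.68), and the calcium-binding matrix genes Smoc1 (2.35) and Smoc2 (1.75). Tinagl1 (1.07) and Npnt (1.03) were also called, but neither was called after median-ratio scaling or quantile normalisation. Smoc1 (0.115 TPM in Lv-Ctrl and 4.71 in Lv-Piezo1) and Npnt (0.77 and 2.62) passed the filter on low values only through the Lv-Piezo1 samples. With a filter at a mean of 5 TPM, 4 genes of the list were called. Fbln1 fell from 336 ± 15.2 to 84.6 ± 2.50 TPM (log2 fold change -1.98). The list thus moved in both directions.

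The core partners of type IV collagen in basement membranes were not called. Nid1, which links the collagen and laminin networks, had a log2 fold change of 0.81 (adjusted p = 2.9e-04). Lamb1 had -0.65 (adjusted p = 6.2e-06) and Lamc1 had 0.42 (adjusted p = 0.0042), so these laminin chains differed in opposite directions. Lama2 was below the filter on low values, and Hspg2 was not analysed here.

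A list of matrix receptors, not all of them specific to type IV collagen, held 11 tested genes. Of these, 2 were called, both higher, or 18.2% beside 7.67% of all tested genes. The median log2 fold change was 0.54, and 0.29 after median-ratio scaling, beside 0.14 and -0.02 for all tested genes. Itgb3, an integrin chain, was at 0.253 ± 0.111 and 1.81 ± 0.433 TPM (log2 fold change 1.16), and Adgrg6, an adhesion G protein-coupled receptor, at 5.82 ± 0.908 and 12.7 ± 1.03 TPM (1.02). These calls lay close to the limits, and Itgb3 passed the filter on low values only through the Lv-Piezo1 samples. After median-ratio scaling Adgrg6 was at 0.86 (adjusted p = 3.1e-05) and Itgb3 was below the filter on low values, so none was called. With that scaling 9 of 10 tested receptors had an unadjusted p below 0.05 in limma. Without Lv-Piezo1 replicate 3 or without Lv-Piezo1 replicate 4 none was called either, with Adgrg6 at 0.99 and 0.98 (adjusted p = 2.2e-04 and 1.8e-04), Itgb3 below the filter, and 6 and 7 receptors at an unadjusted p below 0.05. The share of all tested genes at an unadjusted p below 0.05 is not given here, so nothing is read from these receptor counts. A single receptor was called without Lv-Ctrl replicate 3, Lv-Piezo1 replicate 1 or Lv-Piezo1 replicate 2. The integrin chains Itga1 (0.61, adjusted p = 7.1e-04) and Itgb1 (0.54, adjusted p = 2.3e-04) and the discoidin receptor gene Ddr1 (0.55, adjusted p = 1.5e-05) were not called.

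Of 14 tested turnover genes, 1 rose and 3 fell, or 28.6% beside 7.67% of all tested genes. The median log2 fold change was -0.04, beside 0.14 for all tested genes. Mmp9, a gelatinase that cleaves type IV collagen, rose from 4.51 ± 0.532 to 24.4 ± 1.31 TPM (log2 fold change 2.21). Mmp10 (-1.89) and Mmp3 (-1.5), which encode stromelysins, and Ctsk (-1.57), which encodes a cysteine protease, fell. Mmp2, the other gelatinase, had -0.68 (adjusted p = 1.5e-06) and so was not called. Its activator Mmp14 had -0.05 (adjusted p = 0.65), and Timp3, a matrix-bound inhibitor, had 0.86 (adjusted p = 6.6e-05). The gelatinases thus differed in opposite directions.

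Of 22 other collagen genes tested, 1 rose and 2 fell, or 13.6% beside 7.67% of all tested genes, and 16 had a log2 fold change above 0. Their median was 0.42, and 0.25 after median-ratio scaling, beside 0.14 and -0.02 for all tested genes. They ran from -1.87 to 1.03. Col5a2 (1.03) was called but not after median-ratio scaling nor without Lv-Ctrl replicate 3, and Col19a1 (-1.87) and Col12a1 (-1.59) fell. Col19a1 passed the filter on low values only through the Lv-Ctrl samples. None of the 22 had a log2 fold change as large as Col4a3 or Col4a4, but these chains were selected on this contrast, so nothing is read from that. Col4a1 was exceeded by 2 of them, Col5a2 and Col1a1 (0.83), and Col4a2 by 12 and Col4a5 by 13. Of the chains, Col4a2 and Col4a5 therefore lay in the middle of the collagens of these cells.

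**Figure D5:**
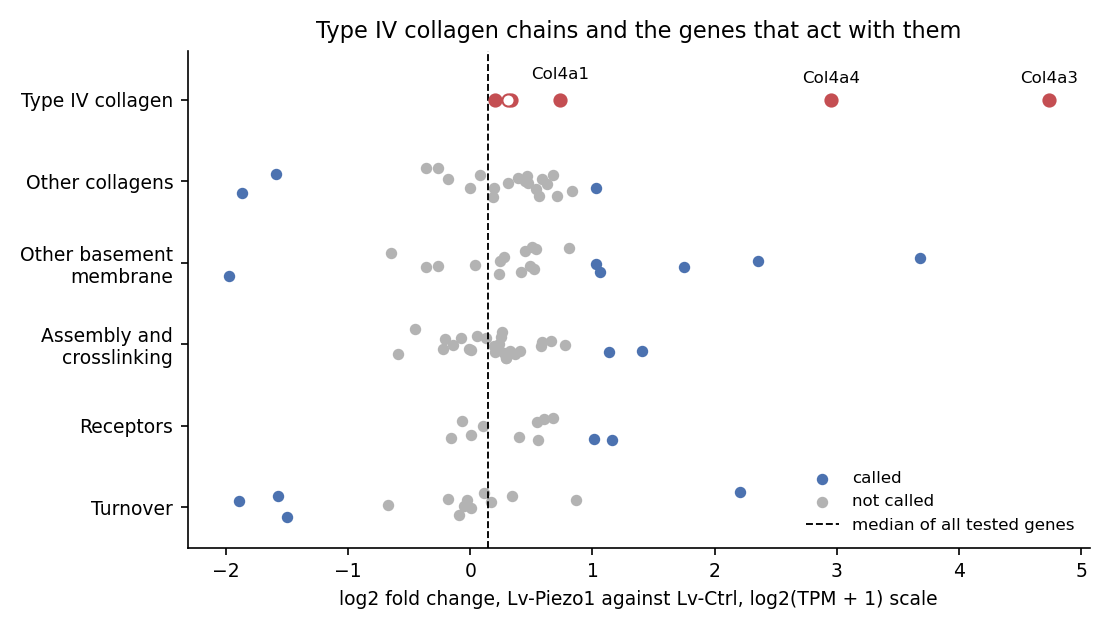
Log2 fold changes of the type IV collagen chains (red, open where not tested) and of tested genes in the related lists, with called genes in blue, others in grey, and a dashed line at the median of all tested genes, 0.14. Col4a3 and Col4a4, selected on this contrast, lie beyond every other tested collagen, and Fbln2 at 3.68 is the largest value among the related lists.

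The cell types named for these chains were looked for by their markers. Among markers of podocytes, which are known for Col4a3 and Col4a4, Nphs1 reached at most 0.06 TPM, Wt1 0.04 and Lmx1b 0.04, and Podxl was listed at 0. Of 6 epithelial markers, which summed to 2.39 to 2.98 and 3.06 to 4.45 TPM, 1 was tested and not called, with a log2 fold change of 0.22, and Cdh1 and Esrp1 were listed at 0. The 7 endothelial markers summed to 0.34 to 0.61 and 0.39 to 0.62 TPM, with Emcn at 0. These 4 podocyte markers and the endothelial list were thus at or near 0 in both groups.

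Smooth muscle markers moved strongly with the group. Of 8 tested, 7 rose (Acta2, Myh11, Cnn1, Tagln, Lmod1, Des and Synm), or 87.5% beside the 7.67% of all tested genes called. The sum of all 8 was 436 to 451 TPM in Lv-Ctrl and 4591 to 4758 TPM in Lv-Piezo1. Of 6 tested pericyte markers, Mcam and Ndufa4l2 rose and Kcnj8 and Abcc9 fell, or 66.7%, with sums of 637 to 670 and 510 to 520 TPM. Ndufa4l2 was not called after median-ratio scaling. The marker lists were chosen with earlier results of these data known, so nothing is read from these shares. The part of these genes in the differences of Col4a3 and Col4a4 was not tested. In bulk RNA, fewer or more cells of a type and less or more RNA per cell cannot be told apart.

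Fibroblast markers of annulus and tendon were abundant in both groups, at a sum of 7169 to 8389 TPM in Lv-Ctrl and 14773 to 16106 TPM in Lv-Piezo1. Of these, 2 of 8 tested (Thbs4 and Fn1) rose, or 25% beside the 7.67% of all tested genes called. Others of the list had lower values in Lv-Piezo1 without a call, Fmod with a log2 fold change of -0.99 (adjusted p = 5.5e-07) and Mkx with -0.76 (adjusted p = 1.0e-04). Fmod was called lower with median-ratio scaling, quantile normalisation, a pseudocount of 0.1 or mitochondrial transcripts left out. Tnmd, a defining tendon marker, reached at most 0.08 TPM. Of 4 tested chondrocyte markers Comp rose, or 25%, though it was not called after quantile normalisation. Comp passed the filter on low values only through the Lv-Piezo1 samples. Hapln1 had a log2 fold change of -0.41 (adjusted p = 0.0011) without a call. Cd24 was the one tested notochordal or nucleus pulposus marker and rose, and Tbxt and Shh were listed at 0. Macrophage markers summed to 21.3 to 23.3 and 37.3 to 41.9 TPM, with Cd68 called higher of 2 tested, Adgre1 at 0 and Ptprc at most 0.01. The mean of Cd68 was below the filter on low values in Lv-Ctrl and above it in Lv-Piezo1. The one tested Schwann cell marker, S100b, fell, the sums were 321 to 332 and 140 to 149 TPM, and Sox10 was listed at 0. The part of these lists in the chain values was not tested.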

How the data were processed

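RNA-seq libraries were made with a SMARTER mRNA-seq kit from 8 samples of stretched AFCs, 4 Lv-Ctrl and 4 Lv-Piezo1. The authors deposited TPM values per gene with 2 decimals, per sample, together with group means, which were not used. According to the study's methods, reads were aligned with HISAT2 and assembled with StringTie. The submitters' processing notes list DESeq2 and mm10, a mouse build, whereas the gene identifiers are rat Ensembl identifiers, so the build behind the TPM values is not given in the sources used here. TPM keeps no depth, so no counting error is given, and replicate spread is the only error used.

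Tests were run on log2(TPM + 1) for genes whose mean over the samples reached 1 TPM, with limma 3.58.1 (R 4.3.3, moderation with a trend), and p-values were adjusted by Benjamini and Hochberg over all 13103 tested genes. All p-values are two-sided. Standard errors of the chains come from their own 4 and 4 values, other standard errors from limma. The code was tested on simulated data. The members and gene lists were chosen with earlier results of these data known, so the share called in a list is a description only. Named genes were the chains, Piezo1, fixed genes of the lists, up to 3 largest rises and falls called in each list, the 3 nearest profiles of each tested chain and 2 neighbours on each side of each pair. Beyond that rule, Tinagl1 and Npnt, the other collagen ratios, Col1a1 and the markers were named after their values were seen. Promoter windows, start sites and gene order come from RefSeq (GRCr8), matched by symbol, and no coordinate comes from the TPM files. Alternatives tried were median-ratio scaling, quantile normalisation, a smaller pseudocount (0.1), a stricter filter (mean of 5 TPM) or none, rescaling without mitochondrial transcripts, untrended moderation, a replicate block, and dropping each sample in turn. Part of the podocyte marker list is not reported here.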

Additional observations from a re-analysis of the deposited data

How the results depend on the processing

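No chain difference changed sign under the alternatives that gave it a value, but an unchanged sign says little for Col4a5. Its difference of 0.21 became 0.04 with median-ratio scaling and 0.02 with quantile normalisation. With median-ratio scaling the differences were 0.55 for Col4a1, 0.16 for Col4a2 and 4.62 for Col4a3. With quantile normalisation they were 4.60 for Col4a3 and 0.19 for Col4a6, and with a pseudocount of 0.1 they were 6.32 for Col4a3, 4.68 for Col4a4 and 1.15 for Col4a6, while the log2 difference of Col4a5/Col4a6 was -0.92. At a minimum mean of 5 TPM, 628 genes were called across the table and 1 receptor, and Col4a4 and Col4a6 had no value. Median-ratio scaling left 1 assembly gene and 0 receptors called, and quantile normalisation left 0 receptors. Under these settings 9 of 10 and 8 of 11 tested receptors were at an unadjusted p below 0.05 in limma. The share of all tested genes below that p is not given here, so nothing is read from these receptor counts. A pseudocount of 0.1 gave 952 genes higher and 486 lower, since it raises fold changes of low genes.

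Leaving out each sample gave 996 to 1038 called genes across the table. It gave 2 assembly genes throughout, 0 to 2 receptors, 4 turnover genes throughout, 5 to 6 basement membrane genes and 2 to 3 other collagens. The differences were 0.68 to 0.77 for Col4a1, 0.27 to 0.37 for Col4a2, 4.70 to 4.76 for Col4a3, 2.88 to 3.07 for Col4a4, 0.09 to 0.29 for Col4a5 and 0.29 to 0.33 for Col4a6. The log2 ratio differences were 0.38 to 0.42 for Col4a1/Col4a2, 0.97 to 1.89 for Col4a3/Col4a4 and -1.63 to -1.30 for Col4a5/Col4a6. Same-numbered samples of the groups had deviations correlated at -0.058 to -0.012, and 0 of 4 Lv-Ctrl samples correlated best with its own number. These values gave no sign of pairing by number, but with so few samples they cannot exclude a shared isolation. The fit with the replicate block called 644 genes higher and 360 lower.

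Levels below 1 TPM, which include Col4a3 and Col4a4 in Lv-Ctrl and Col4a6 in both groups, rest on an unknown number of reads, and their ratios depend on the pseudocount.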
